A study of Mus musculus with 33 samples.

Results

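The cells described here are fibroblasts of the adult mouse colon that held RNA of Pi16, which encodes peptidase inhibitor 16, and little RNA of Adamdec1, a marker gene of the fibroblasts of the lamina propria. They were chosen in droplet single-cell RNA sequencing data, where a molecular barcode, the UMI, lets every captured RNA molecule count a single time. A cell was a barcode with 1000 UMIs and 500 genes or more, of whose UMIs mitochondrial genes took no more than 20%. A member was a cell that held at least 2 Pi16 UMIs, gave under 0.2% of its UMIs to Adamdec1, had fewer than 2 UMIs of the endothelial genes Pecam1 and Cdh5 together and had no UMI of the leukocyte gene Ptprc. This rule found 965 members among 17652 cells, namely 57 of 6793 cells in the whole mesenchyme library, 470 of 4834 in GFP-low replicate 1 and 438 of 6025 in GFP-low replicate 2. The members held 685, 984 and 564.5 CPM of Pi16 (a gene's UMIs scaled to a common total of the set) in that order, the order in which all values of the 3 libraries are given below. The median member had 3, 4 and 3 Pi16 UMIs and the highest had 35, 61 and 49. Just inside the limit, 20, 117 and 156 members had exactly 2 Pi16 UMIs, and just outside it 37, 269 and 332 cells with a Cd81 UMI and low Adamdec1 had 1. Of the 68, 490 and 447 cells with at least 2 Pi16 UMIs, 8, 15 and 9 went over the Adamdec1 limit. Pi16, Adamdec1, Cd81, the endothelial and leukocyte genes and the mitochondrial genes were used to choose cells, so their levels are a description and were not tested.

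The series holds 33 samples of mouse, of which the 3 single-cell libraries were used here. All 3 came from colon of adult mice of both sexes, from which the muscle layer was removed before EDTA and collagenase treatment. Whole mesenchyme (1 library, genotype given as control) was sorted for cells lacking EpCAM, found on epithelium, and CD45, found on leukocytes. GFP-low cells (2 replicates) came from PdgfraH2BeGFP mice, whose nuclear green fluorescent protein is made from the Pdgfra locus, and were sorted for a low level of it. About 8000 cells were loaded per library on the 10x 3′ V3.1 chemistry. The libraries held 39190629 to 52313765 UMIs. Their labels do not say how many animals gave each library or whether the replicates came from separate ones, so the p-values reflect spread among these libraries alone, and that spread may be technical. Of all cells, 17, 17 and 22 had a barcode also found in another library, among them 0, 2 and 2 members.

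Fibroblasts with Pi16 and Dpp4 are known from many organs, where they lie in the adventitia of larger vessels and in loose connective sheets and have been described as progenitor-like. In the intestine, fibroblasts with CD81 are known to lie below the crypts and deeper in the submucosa, and those that make the BMP antagonist Gremlin 1 and R-spondins are called trophocytes because they sustain epithelial stem cells. The fibroblasts with Adamdec1 lie in the lamina propria between the crypts.

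Beside Pi16, the markers Cd248, Cd81 and Dpp4 were checked. Cd248, which encodes the surface glycoprotein endosialin, was found in 51 of 57, 422 of 470 and 392 of 438 members (89.5%, 89.8% and 89.5%). In the cells of the first comparison below, which had a Cd81 UMI and no Pi16 (medians of 5290, 6509.5 and 7434 UMIs), it was found in 50.3%, 69.2% and 64.4%, so most of those cells held it too. Among 5056, 1234 and 1348 cells with Adamdec1 at or over 0.2% of UMIs and no Pi16 (Adamdec1-rich fibroblasts), it was found in 19.0%, 43.7% and 40.7%, and among 733 endothelium-like cells of whole mesenchyme in 4.23%. The name Adamdec1-rich fibroblasts stands for that rule, which does not leave out all other cell types. Cd81, a tetraspanin, was found in 49, 436 and 416 members (86.0%, 92.8% and 95%) and in 5.74%, 15.3% and 11.8% of the Adamdec1-rich fibroblasts. Dpp4, the membrane peptidase CD26, was seen in few members, 6, 92 and 56 (10.5%, 19.6% and 12.8%), against 1.78%, 3.32% and 3.54% of the Pi16-negative cells with Cd81, 0.0791%, 0.486% and 0.297% of the Adamdec1-rich fibroblasts and none of the endothelium-like cells of whole mesenchyme. Median depth was 7133, 7147.5 and 8584 UMIs in members, 4858.5, 6971.5 and 6576.5 in Adamdec1-rich fibroblasts and 3162 in the endothelium-like cells. The summed members held 31.8, 46.7 and 23.3 CPM of Dpp4. Free RNA was present too. Barcodes with under 100 UMIs held 15.1, 104 and 57.5 CPM of Pi16 and 7891, 1964 and 1788 CPM of Adamdec1, and 86.0%, 26.8% and 29.9% of members held an Adamdec1 UMI.

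Markers of other cell types were checked in the members. Of 10 epithelial marker genes 10, 8 and 6 were at 0, and of 12 mesothelial ones 11, 11 and 9 were at 0, Msln, Upk3b and Muc16 among them in every library. The summed level of 8 blood endothelial markers (Pecam1 and Cdh5, used in the rule, not counted) was 29.1, 5.53 and 2.68 CPM in members, and that of 8 pericyte markers was 13.2, 12.3 and 12.1. The cells they are compared with first, described next, held 415, 9.02 and 4.03 and 390.5, 21.8 and 18.5 for the same lists, with the highest sums in whole mesenchyme. Smooth muscle markers summed to 228, 263 and 306 in members and 861, 189 and 255 in those cells, and glial markers to 138, 123 and 84.8 and 585, 212 and 148. The smooth muscle list includes Hhip, with 45, 615 and 928 UMIs in members and 184, 1412 and 4291 in those cells. Acta2 of the same list had 13, 19 and 14 UMIs in members and 1108, 100 and 133 in those cells. In members Actg2 and Cnn1 were at 0 in GFP-low replicate 1, and Myh11, Cnn1 and Lmod1 in replicate 2. The T and innate lymphoid list summed to 405, 330.2 and 437 in members, with Cd3e, Cd3d, Il7r and Nkg7 at 0 in every library. These sums came from Gata3 and Rora in whole mesenchyme. In GFP-low replicate 1 they came from Trbc2, Rora and Cd52, and in replicate 2 from Rora and Cd52.

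Members made up 0.839% of whole mesenchyme cells (exact 95% interval 0.636% to 1.09%, counting error only), 9.72% of GFP-low replicate 1 (8.90% to 10.6%) and 7.27% of GFP-low replicate 2 (6.63% to 7.95%). Whole mesenchyme was lowest and the GFP-low intervals did not overlap. The sorts set which cells were loaded, so these shares describe the libraries, and with 1 whole mesenchyme library no test was made. Over the Adamdec1-low cells with Cd81 or Pi16 alone, members were 9.48% (57 of 601), 15.7% (470 of 2995) and 11.6% (438 of 3768). With each cell thinned to 3000 UMIs, which left 4344, 3828 and 5071 cells, the shares were 0.576%, 7.05% and 3.21%. The share among Adamdec1-rich cells that also held at least 2 Pi16 UMIs was 0.157%, 1.10% and 0.655%.

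The first comparison asks how the members differ from other cells with Cd81 and low Adamdec1. It set the summed UMIs of the members of each library against those of 507, 2256 and 2998 cells of the same library that had a Cd81 UMI, no Pi16 UMI and the same limits on Adamdec1, Pecam1, Cdh5 and Ptprc. This rule does not leave out all other cell types. With cells marked as other types left out, 428 of the 507 whole mesenchyme comparison cells and 56 of its 57 members remained. Of 10863 genes tested with edgeR's quasi-likelihood test, with the library as a block and Benjamini-Hochberg adjustment, 595 were higher in members (5.48%) and 820 lower (7.55%) at an adjusted p under 0.05, 13% in all, and 1188 of them (10.9%) moved the same way in all 3 libraries. The median log2 difference of all genes tested was -0.0036. Single libraries weighed on these counts: without GFP-low replicate 1 there were 224 higher and 359 lower genes, without GFP-low replicate 2 there were 135 and 203, and without whole mesenchyme 889 and 1108. The genes tested in these fits numbered 10468, 10517 and 11732. Of the 1415 genes called, 562 of 1381, 336 of 1390 and 1401 of 1408 that could still be tested were called again in these fits. Direction was kept by 1381, 1389 and 1408 of them. Each fit reuses libraries that made the calls, so kept direction is no independent evidence. DESeq2 called 238 higher and 271 lower, the fit without the library block 15 and 12, and a wider comparison set, the 1026, 2285 and 3010 cells found without the endothelial and Ptprc limits, gave 100 and 165 of 11261 genes tested. With cells thinned to 3000 UMIs, 230 and 348 were called. Members were the deeper cells, with medians of 7133, 7147.5 and 8584 UMIs against 5290, 6509.5 and 7434, and in cells matched on depth 556 and 763 genes were called. Of the 106 genes that the naming rule gave for this comparison, 46 lost their call against the wider set and 0 changed direction. Those that had been higher were Ly6c1, Cd34, Nov, Col8a1, Lamb2, Lama4, Vcan, Timp3, Tgfb1, Prrx2, Zfp423, Ptgs1, S100a6, Anxa1, Hhip and Notch2, and among those that had been lower were Grem1, Rspo3, Penk, Pdgfra, Wnt2b, Col4a5, Lrrc32, Tgfbi, Angpt1, Robo2, Cxcl13, C2, Masp1, Cp, Steap4, P2ry14, Tcf21, Irf8, Boc, Ptch1, Socs3, Hspa1a, Dnajb1, Hmgb2, Acta2, Tagln, Mylk, Ifitm1 and Adm. With DESeq2 13 lost theirs, Lama4, Zfp423 and Notch2 of the higher and Rspo3, Penk, Boc, Ptch1, Dnajb1, Hmgb2, Acta2, Tagln, Igkc and Igha of the lower genes. After thinning 10 did, Lama4, Tgfb1, Osr2, Zfp423 and Notch2 and Rspo3, Pdgfra, Col4a5, Boc and Ptch1. Levels below are CPM after edgeR's scaling, and differences are log2, members minus comparison cells, with the standard error (SE). Overlap below means overlap of the 3 member and the 3 comparison values. Most named genes were picked for large differences of 1 direction in all 3 libraries, which favours separate values. The share of all tested genes without overlap was not counted, here or in the second comparison, and overlap is stated for some genes only.

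Genes known from Pi16 and Dpp4 fibroblasts of other organs were higher as a group. Of 39 tested, 33 were higher and 0 lower, with a median difference of 0.90, beside 5.48% of all genes higher. The counts were 24 and 0 of 36 without GFP-low replicate 1, 23 and 0 of 38 without GFP-low replicate 2, 35 and 0 of 39 without whole mesenchyme, and 20 and 0 of 39 against the wider set. These genes were listed with earlier results of the same data known, so their direction is no independent evidence. Dpp4 stood at 30.8, 43.7 and 25.3 CPM in members and 4.05, 6.97 and 7.57 CPM in comparison cells (log2 difference 2.25 ± 0.19 (SE), adjusted p = 1.36e-06). All 3 member values lay above all 3 comparison values, and the whole mesenchyme members held 12 Dpp4 UMIs. Cd248 stood at 489.6, 705 and 530.4 against 274, 323 and 263 CPM (log2 difference 1.01 ± 0.09 (SE), adjusted p = 2.78e-06). Cd55, which protects cells from complement, stood at 1436, 1344 and 1348 against 827, 661 and 635 CPM (log2 difference 0.98 ± 0.09 (SE), adjusted p = 4.06e-06), without overlap. Sema3c, a secreted guidance protein, had 449, 512 and 609 CPM in members and 226, 231 and 262 CPM in comparison cells (log2 difference 1.13 ± 0.09 (SE), adjusted p = 8.82e-07). Anxa3, a calcium-dependent membrane-binding protein, had 213, 309 and 235 against 103, 123 and 104 CPM (log2 difference 1.22 ± 0.09 (SE), adjusted p = 3.01e-07). Neither gene's groups overlapped.

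Efhd1, Stmn4 and Nov were named for the largest differences in this group under the naming rule. Their larger differences than those of the fixed markers above therefore follow from that choice. Whether level and difference were related over the group was not tested. Efhd1, a calcium-binding protein of mitochondria, stood at 56.4, 53.2 and 48.2 CPM in members and 12.9, 7.59 and 5.97 CPM in comparison cells (log2 difference 2.82 ± 0.14 (SE), adjusted p = 2.28e-08). Stmn4, a stathmin that binds tubulin, stood at 35.9, 25.6 and 17.1 against 4.05, 3.90 and 3.81 CPM (log2 difference 2.51 ± 0.20 (SE), adjusted p = 1.01e-06). Nov, the matricellular protein CCN3, stood at 35.9, 51.5 and 57.5 against 8.84, 7.86 and 14.8 CPM (log2 difference 2.25 ± 0.15 (SE), adjusted p = 1.98e-07). For each of them the members of every library were above the comparison cells of every library. The surface genes long used to sort fibroblast progenitors differed by less than the median of the group. Ly6c1 was higher by 0.56 (adjusted p = 0.000448) and Cd34, the sialomucin, by 0.50 (adjusted p = 0.00188), the latter not called without GFP-low replicate 2 (0.55, adjusted p = 0.0676). Ly6a, which encodes SCA-1, stood at 2043, 3171 and 1519.9 against 1524, 2896 and 1438 CPM and did not pass (difference 0.21 ± 0.09 (SE), adjusted p = 0.204).

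**Figure D1:**
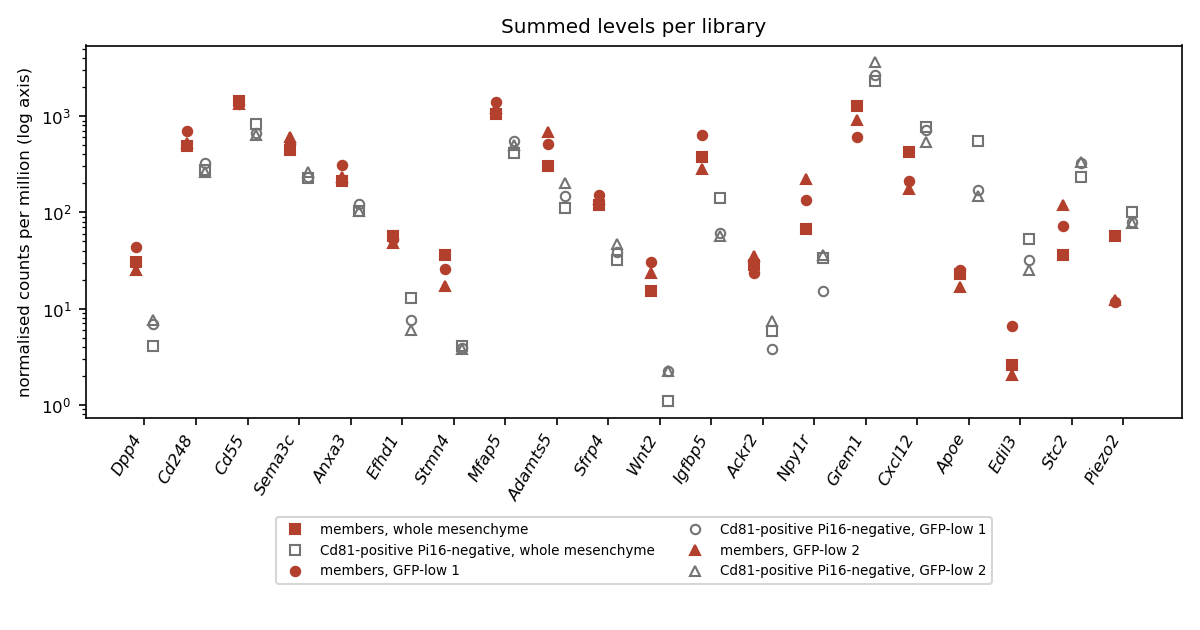
Level of 20 named genes, in scaled CPM on a log axis, in the summed members (filled red) and the summed Cd81-positive Pi16-negative cells (open grey) of each library (squares whole mesenchyme, circles and triangles GFP-low replicates 1 and 2). Dpp4 lies at 30.8, 43.7 and 25.3 in members and at 4.05, 6.97 and 7.57 in comparison cells, while Grem1 and the genes to its right lie lower in members.

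Among 77 surface protein genes tested, 24 were higher and 19 lower (17 and 11 of 76 without GFP-low replicate 1, 13 and 9 of 76 without GFP-low replicate 2, 30 and 20 of 80 without whole mesenchyme, and 9 and 9 of 83 against the wider set). After Dpp4, the largest differences were falls. Aoc3, a vascular adhesion protein with amine oxidase activity, stood at 12.8, 14.1 and 12.8 CPM in members and 68.1, 51.8 and 43.1 CPM in comparison cells (log2 difference -1.86 ± 0.13 (SE), adjusted p = 2.24e-07). Cadm1, an immunoglobulin-like adhesion molecule, stood at 5.13, 12.1 and 11 against 36.8, 29.1 and 33.6 CPM (log2 difference -1.50 ± 0.16 (SE), adjusted p = 1.4e-05). The members of whole mesenchyme held 2 Cadm1 UMIs. The tetraspanin gene Cd82 was lower, at -1.43 (adjusted p = 5.71e-05) and P2ry14, a receptor of UDP-sugars, at -1.29 (adjusted p = 5.04e-06). None of these 4 overlapped between the sets. Pdgfra, which marks gut fibroblasts and drove the sort of 2 libraries, stood at 251, 133 and 126 against 309.7, 181 and 172 CPM (log2 difference -0.41 ± 0.08 (SE), adjusted p = 0.00361), with overlapping values, and was not called without GFP-low replicate 1 (-0.37, adjusted p = 0.224) or replicate 2 (-0.38, adjusted p = 0.254).

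Elastic fibres consist of elastin on a scaffold of fibrillin microfibrils, and more of their genes were higher than lower in members, 12 and 5 of 21 tested, with a median of 0.38 (7 and 1 of 19 without GFP-low replicate 1, 5 and 0 of 19 without GFP-low replicate 2, 13 and 6 of 22 without whole mesenchyme, and 4 and 0 of 21 against the wider set). Mfap5, a microfibril glycoprotein, stood at 1061, 1396 and 1202 CPM in members and 413, 549 and 503 CPM in comparison cells (log2 difference 1.32 ± 0.09 (SE), adjusted p = 2.01e-07). Fbn1, fibrillin 1, stood at 1415, 1847 and 1458 against 860.1, 960.0 and 727 CPM (log2 difference 0.90 ± 0.09 (SE), adjusted p = 9.44e-06). Emilin2, which binds elastin, was higher by 1.09 (adjusted p = 2.92e-07). All 3 were separate between the sets. The 5 lower genes were Mfap2, Fbln1, Emilin1, Ltbp1 and Lox. Basement membrane genes were higher in 7 of 12 tested and lower in 0, with a median of 0.31 (2 and 0 of 11 without GFP-low replicate 1, 1 and 0 of 12 without GFP-low replicate 2, 8 and 0 of 11 without whole mesenchyme, and 1 and 0 of 14 against the wider set). Nid1, which links laminin to collagen IV, stood at 595, 873 and 876 against 383, 502 and 559 CPM (log2 difference 0.70 ± 0.09 (SE), adjusted p = 7.72e-05). The laminin chains Lamb2 (0.64, adjusted p = 0.000358) and Lama4 (0.33, adjusted p = 0.0222) differed less, and their values overlapped. Lamb2 was not called without GFP-low replicate 2 (0.55, adjusted p = 0.112), nor was Lama4 without GFP-low replicate 1 (0.42, adjusted p = 0.127) or replicate 2 (0.34, adjusted p = 0.357).

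Hyaluronan is a long sugar polymer made at the cell surface by hyaluronan synthases, and 9 of 20 tested genes of hyaluronan and small proteoglycans were higher and 2 (Lum and Podn) lower (5 and 0 of 20 without GFP-low replicate 1, 3 and 0 of 18 without GFP-low replicate 2, 10 and 5 of 20 without whole mesenchyme, and 3 and 0 of 20 against the wider set). Ugdh, the enzyme that makes its building block UDP-glucuronate, stood at 851, 924 and 1848 CPM in members and 411, 405 and 848 CPM in comparison cells (log2 difference 1.13 ± 0.09 (SE), adjusted p = 8.82e-07). Has2, a synthase, stood at 105, 45.1 and 51.7 against 62.6, 19.0 and 19.9 CPM (log2 difference 1.22 ± 0.11 (SE), adjusted p = 3.4e-06). In each library members were higher, but whole mesenchyme was high in both sets, so the Has2 groups overlapped. Vcan, a large proteoglycan that binds hyaluronan, was higher by 0.67 (adjusted p = 7.05e-05). Of 24 collagen chains tested 2 were higher, Col8a1 and Col14a1, and 5 lower (0 and 3 of 23 without GFP-low replicate 1, 1 and 1 of 23 without GFP-low replicate 2, 4 and 9 of 24 without whole mesenchyme, and 0 and 2 of 24 against the wider set). Over all genes tested 5.48% were higher and 7.55% lower. Col8a1, a network-forming chain, was higher by 0.53 (adjusted p = 0.001), overlapped and was not called without GFP-low replicate 1 (0.51, adjusted p = 0.0575). The collagen IV chains Col4a4 (-1.23, adjusted p = 9.19e-05) and Col4a5 (-0.79, adjusted p = 0.000424) were lower, Col4a5 not without GFP-low replicate 2 (-0.57, adjusted p = 0.143).

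Matricellular proteins, which sit in the matrix and act on cells, were divided, with 7 of 20 higher and 8 lower (5 and 5 of 20 without GFP-low replicate 1, 4 and 5 of 20 without GFP-low replicate 2, 7 and 10 of 20 without whole mesenchyme, and 3 and 2 of 20 against the wider set). Nov was among the higher ones. Spon1, a matrix protein first known from the nervous system, stood at 25.6, 10.6 and 7.55 CPM in members and 64.1, 55.9 and 45.9 CPM in comparison cells (log2 difference -2.36 ± 0.15 (SE), adjusted p = 1.86e-07), and Tnc, tenascin C, stood at 35.9, 23.6 and 42.1 against 97.6, 67.7 and 87.7 CPM (log2 difference -1.27 ± 0.11 (SE), adjusted p = 1.45e-06). Both were lower in members of every library than in comparison cells of any. Matrix proteases and their inhibitors were divided as well, 11 higher and 10 lower of 36 (5 and 5 of 35 without GFP-low replicate 1, 3 and 2 of 35 without GFP-low replicate 2, 12 and 13 of 37 without whole mesenchyme, and 3 and 1 of 35 against the wider set). Adamts5, an aggrecanase that cleaves proteoglycans, stood at 302, 514 and 677 against 111, 149 and 201 CPM (log2 difference 1.70 ± 0.09 (SE), adjusted p = 3.02e-08). Timp3, an inhibitor of such proteases that stays bound to the matrix, stood at 687, 749 and 767 against 508, 183 and 246 CPM (log2 difference 1.44 ± 0.20 (SE), adjusted p = 0.000154), with a smaller gap in whole mesenchyme. Mmp3, stromelysin 1, stood at 0, 55.8 and 14.8 against 8.10, 132 and 32.2 CPM (log2 difference -1.22 ± 0.11 (SE), adjusted p = 2.35e-06), and its level differed so much between libraries that the groups overlapped.

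BMP proteins restrain the stem cell zone of the crypt, and their secreted antagonists are products of the fibroblasts below it. Grem1, which encodes the antagonist Gremlin 1, was lower in members, at 1279, 606 and 917 CPM against 2315, 2664 and 3614 CPM in comparison cells (log2 difference -1.69 ± 0.18 (SE), adjusted p = 1.21e-05). The fall was smallest in whole mesenchyme and the groups did not overlap, but against the wider set it did not pass (-1.44, adjusted p = 0.154). Gdf6, a BMP-type ligand, was lower, at -1.27 (adjusted p = 0.000158), with overlap. Over the 23 tested BMP ligands and antagonists 3 were higher (Bmp6, Fstl1 and Nbl1) and 8 lower, Bmp4 and Bmp5 among them (4 and 6 of 22 without GFP-low replicate 1, 1 and 4 of 22 without GFP-low replicate 2, 5 and 8 of 22 without whole mesenchyme, and 2 and 2 of 24 against the wider set). Bmp7 fell under the filter on low counts and was not tested. Of 17 tested trophocyte genes 2 were higher (Fgf18 and Nbl1) and 7 lower (3 and 4 of 17 without GFP-low replicate 1, 1 and 5 of 17 without GFP-low replicate 2, 3 and 10 of 18 without whole mesenchyme, and 0 and 1 of 19 against the wider set). Rspo3, a Wnt-enhancing R-spondin, stood at 74.3, 110.1 and 202 against 108, 174 and 239 CPM (log2 difference -0.44 ± 0.10 (SE), adjusted p = 0.00699), overlapped, and was not called without GFP-low replicate 1 (-0.31, adjusted p = 0.45).

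Wnt genes split by member. Wnt2, a ligand of the canonical pathway, stood at 15.4, 30.5 and 23.2 CPM in members and 1.10, 2.26 and 2.27 CPM in comparison cells (log2 difference 3.55 ± 0.20 (SE), adjusted p = 3.02e-08), while its relative Wnt2b stood at 17.9, 7.48 and 11.9 against 22.5, 24.3 and 30.8 CPM (log2 difference -1.42 ± 0.17 (SE), adjusted p = 5.33e-05). Wnt2 was thus called higher and Wnt2b lower in members, and neither overlapped. The secreted Wnt antagonist Sfrp4 stood at 120.5, 151 and 138 against 31.7, 38.9 and 47.2 CPM (log2 difference 1.76 ± 0.09 (SE), adjusted p = 2.28e-08). Among 30 tested secreted Wnt pathway and receptor genes 4 were higher, Wnt2, Wnt10b, Wnt11 and Sfrp4, and 10 lower (4 and 3 of 28 without GFP-low replicate 1, 3 and 3 of 29 without GFP-low replicate 2, 4 and 13 of 32 without whole mesenchyme, and 4 and 0 of 31 against the wider set). Wnt10b, named because it is one of these 4, stood at 5.13, 21.9 and 19.5 against 2.58, 1.57 and 1.90 CPM (log2 difference 3.40 ± 0.27 (SE), adjusted p = 1e-06). The lower ones held the receptor genes Fzd1, Fzd5, Fzd7, Ror1 and Ror2 and the antagonist Sfrp1.

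Insulin-like growth factors are held in tissue by binding proteins, and 10 of the 11 tested genes of this system differed, 4 higher and 6 lower (2 and 3 of 11 without GFP-low replicate 1, 2 and 2 of 11 without GFP-low replicate 2, 4 and 7 of 12 without whole mesenchyme, and 1 and 3 of 11 against the wider set). Igfbp5, a binding protein that also binds matrix, stood at 374, 631 and 283 CPM in members and 142, 60.4 and 57.0 CPM in comparison cells (log2 difference 2.50 ± 0.23 (SE), adjusted p = 3.5e-06). Igfbp3, the main carrier in serum, stood at 35.9, 9.78 and 4.36 against 72.9, 51.5 and 23.5 CPM (log2 difference -2.18 ± 0.19 (SE), adjusted p = 1.7e-06). Pappa, a protease that frees IGF by cleaving binding proteins, stood at 15.4, 2.30 and 7.55 against 95.7, 22.8 and 28.5 CPM (log2 difference -2.42 ± 0.21 (SE), adjusted p = 1.85e-06). Igfbp5 and Pappa were separate in all libraries, and Igfbp3 was lower in each library but overlapped because whole mesenchyme was high in both sets. TGF-beta and activin genes gave 5 higher and 5 lower of 26 (3 and 2 of 25 without GFP-low replicate 1, 1 and 2 of 25 without GFP-low replicate 2, 8 and 5 of 27 without whole mesenchyme, and 0 and 0 of 25 against the wider set). Tgfb1, the ligand, stood at 66.6, 49.7 and 58.9 against 49.7, 29.3 and 33.3 CPM (log2 difference 0.76 ± 0.09 (SE), adjusted p = 5.92e-05), and Lrrc32, which holds latent TGF-beta at the cell surface, was lower, at -0.85 (adjusted p = 1.67e-05), as was the TGF-beta-induced matrix gene Tgfbi at -0.78 (adjusted p = 7.12e-05). None of these 3 overlapped, but Tgfb1 almost did, with 49.74 CPM in GFP-low replicate 1 members and 49.71 in whole mesenchyme comparison cells.

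Other growth factors were more often lower, 13 of 34 against 5 higher, with a median of -0.30 (4 and 11 of 33 without GFP-low replicate 1, 2 and 5 of 34 without GFP-low replicate 2, 6 and 15 of 38 without whole mesenchyme, and 1 and 3 of 39 against the wider set). Vegfc, the growth factor of lymphatic vessels, stood at 28.2, 21.9 and 22.4 CPM in members and 35.7, 74.5 and 81.0 CPM in comparison cells (log2 difference -1.74 ± 0.13 (SE), adjusted p = 5.8e-07). Kitl, the ligand of the receptor KIT, stood at 20.5, 9.49 and 24.1 against 84.3, 34.1 and 73.7 CPM (log2 difference -1.72 ± 0.12 (SE), adjusted p = 2.24e-07). Angpt1, the angiopoietin that steadies vessels through the receptor TIE2, was lower, at -1.45 (adjusted p = 9.82e-05). All 3 were separate, with the smallest gaps for Vegfc and Angpt1 in whole mesenchyme. Axon guidance genes gave 7 higher and 6 lower of 34 (4 and 4 of 31 without GFP-low replicate 1, 3 and 5 of 31 without GFP-low replicate 2, 8 and 9 of 36 without whole mesenchyme, and 2 and 4 of 38 against the wider set). Lower were Sema5a at -1.48 (adjusted p = 3.48e-05), the semaphorin and VEGF coreceptor Nrp2 at 74.3, 71.9 and 100.2 against 135, 180.0 and 209.7 CPM (log2 difference -1.15 ± 0.09 (SE), adjusted p = 1.23e-06), and the Slit receptor Robo2 at -1.14 (adjusted p = 7e-06).

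Of 38 tested chemokine and cytokine genes 7 were higher and 15 lower (7 and 8 of 36 without GFP-low replicate 1, 4 and 6 of 37 without GFP-low replicate 2, 9 and 17 of 37 without whole mesenchyme, and 4 and 3 of 38 against the wider set). Cxcl12, the chemokine of CXCR4 on leukocytes and progenitors, stood at 426, 213 and 175 CPM in members and 773, 719.8 and 534 CPM in comparison cells (log2 difference -1.46 ± 0.13 (SE), adjusted p = 3.13e-06). Cxcl13, which draws B cells into follicles, stood at 2.56, 19.6 and 4.06 against 19.1, 42.6 and 33.6 CPM (log2 difference -1.74 ± 0.24 (SE), adjusted p = 0.000159). Its member values rest on 1, 68 and 14 UMIs and overlapped with the comparison values. GFP-low replicate 1 was high in both sets, and without it the Cxcl13 difference was -3.02 (adjusted p = 2.85e-15). Ackr2, a receptor that takes up inflammatory chemokines without signalling through G proteins, went the other way, at 28.2, 23.6 and 34.8 against 5.89, 3.83 and 7.52 CPM (log2 difference 2.35 ± 0.16 (SE), adjusted p = 2.24e-07), with no overlap. Complement genes were lower in 7 of 16 tested and higher in 1, Cd55 (1 and 4 of 16 without GFP-low replicate 1, 1 and 2 of 16 without GFP-low replicate 2, 1 and 10 of 18 without whole mesenchyme, and 1 and 0 of 17 against the wider set). C2 fell by 1.06 on the log2 scale (adjusted p = 8.22e-05) and the lectin pathway protease Masp1 by 0.94 (adjusted p = 0.000103), both with overlap, Masp1 not without GFP-low replicate 2 (-0.78, adjusted p = 0.0768). Of 7 tested acute phase genes 1 was higher, Ptx3, and 4 lower (1 and 3 of 7 without GFP-low replicate 1, 1 and 3 of 7 without GFP-low replicate 2, 1 and 4 of 9 without whole mesenchyme, and 0 and 1 of 9 against the wider set). Saa3, a serum amyloid A of inflamed stroma, stood at 2.56, 1.15 and 1.45 against 40.9, 18.6 and 6.44 CPM (log2 difference -3.34 ± 0.33 (SE), adjusted p = 7.17e-06). The member values rest on 1, 4 and 5 Saa3 UMIs, so the size of this difference is uncertain. The iron-handling genes Cp, ceruloplasmin (-1.49, adjusted p = 6.29e-07), and Steap4, a metalloreductase (-1.35, adjusted p = 1.16e-06), were lower without overlap.

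Of 18 tested genes listed for Col15a1 and lamina propria fibroblasts 10 were lower in members and 1 higher, Hspg2, with a median of -0.91 (0 and 5 of 16 without GFP-low replicate 1, 0 and 5 of 16 without GFP-low replicate 2, 1 and 11 of 18 without whole mesenchyme, and 0 and 4 of 18 against the wider set). Adamdec1 itself stood at 474, 195 and 149 CPM in comparison cells and 421, 72.8 and 66.0 in members. It was found in 82.1%, 43.0% and 40.1% of comparison cells and 86.0%, 26.8% and 29.9% of members. Its relation to these falls was not tested. Apoe, which carries lipid, stood at 23.1, 25.3 and 16.8 CPM in members and 547, 172 and 148 CPM in comparison cells (log2 difference -3.14 ± 0.16 (SE), adjusted p = 2.28e-08). The whole mesenchyme comparison cells were highest, and they also held more RNA of macrophage and dendritic cell markers (174, 89.3 and 33.7 summed CPM, against 15.9, 41.2 and 11 in members). With cells marked as other types left out, the Apoe difference was -2.96. Edil3, a secreted ligand of integrins, stood at 2.56, 6.61 and 2.03 against 52.3, 31.7 and 24.9 CPM (log2 difference -2.81 ± 0.23 (SE), adjusted p = 1.24e-06). Its member values rest on 1, 23 and 7 UMIs. Penk, which encodes the opioid precursor proenkephalin, differed by a small amount (-0.36, adjusted p = 0.0333), with overlap, and was not called without GFP-low replicate 1 (-0.42, adjusted p = 0.159) or replicate 2 (-0.18, adjusted p = 0.797). Col15a1 stood at 100, 44.6 and 25.0 against 92.8, 46.5 and 28.7 CPM and did not pass (adjusted p = 0.702).

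Transcription factor genes were called in 25 of 160 tested as higher and 27 as lower (13 and 8 of 156 without GFP-low replicate 1, 7 and 4 of 156 without GFP-low replicate 2, 28 and 38 of 165 without whole mesenchyme, and 3 and 4 of 168 against the wider set). Hoxd11, a factor of posterior body position, stood at 2.56, 9.78 and 6.97 CPM in members and 16.2, 27.9 and 21.7 CPM in comparison cells (log2 difference -1.60 ± 0.17 (SE), adjusted p = 1.33e-05), and Hoxb4, of a more anterior position, at 25.6, 31.9 and 24.1 against 43.8, 55.3 and 37.8 CPM (log2 difference -0.73 ± 0.10 (SE), adjusted p = 0.000192). The members of whole mesenchyme held 1 Hoxd11 UMI. Tcf21, a mesenchymal factor of gut and lung, was lower, at -0.86 (adjusted p = 8.64e-06), with lower members in each library but overlap between libraries. Irf8, better known from myeloid cells, differed by -0.76 (adjusted p = 8.64e-05; -0.59 and adjusted p = 0.0689 without GFP-low replicate 2). Among the higher ones, Prrx2, a homeobox factor of limb and connective tissue mesenchyme, stood at 35.9, 21.3 and 13.1 against 10.3, 9.91 and 6.49 CPM (log2 difference 1.14 ± 0.17 (SE), adjusted p = 0.000369), and Osr2, an odd-skipped factor, at 7.69, 29.3 and 44.1 against 3.31, 13.5 and 27.4 CPM (log2 difference 0.86 ± 0.13 (SE), adjusted p = 0.000354). Irf8 and Osr2 overlapped between the sets, and the whole mesenchyme members held 3 Osr2 UMIs.

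Several of the higher factors belong to one family, the early B cell factors, known as fate regulators of adipocyte progenitors and B cells. They were singled out after their values were seen. Ebf1 stood at 641, 725 and 1523 CPM in members and 493, 452 and 993 CPM in comparison cells (log2 difference 0.57 ± 0.09 (SE), adjusted p = 0.00062), with overlap. Ebf2 was rare, at 12.8, 5.18 and 5.81 against 2.58, 1.16 and 1.60 CPM (log2 difference 2.02 ± 0.35 (SE), adjusted p = 0.00103). Ebf3 stood at 2.56, 10.1 and 24.1 against 4.42, 4.85 and 9.37 CPM (log2 difference 1.20 ± 0.20 (SE), adjusted p = 0.000691), higher in both GFP-low libraries and lower in whole mesenchyme, where the members held 1 UMI. The family binds a palindrome, TCCC and GGGA with 2 free bases between them, which reads the same on both strands. In RefSeq promoter windows of build GRCm38.p6, from 250 bases before to 50 after each start, it was found for 287 of 27025 genes (1.06%), 106 of the 8493 tested genes with a window (1.25%), 10 of the 448 higher genes with a window (2.23%) and 9 of the 610 lower genes with one (1.48%). These are matches of letters, not measured binding, and the motif was chosen after the results were seen. Dpp4 was the 1 of 24 higher adventitial genes with a window that held it, and Cadm3, chosen after its values were seen, an adhesion gene called higher (1.13, adjusted p = 2.33e-07), held it too. Their stretches before the start are shown 5′ to 3′ with the match in capitals, 115 and 137 bases before the start:
Dpp4 (chr2:62412277-62412406, minus strand): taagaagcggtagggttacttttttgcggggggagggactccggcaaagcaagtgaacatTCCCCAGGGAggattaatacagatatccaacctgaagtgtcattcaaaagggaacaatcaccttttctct
Cadm3 (chr1:173367763-173367892, minus strand): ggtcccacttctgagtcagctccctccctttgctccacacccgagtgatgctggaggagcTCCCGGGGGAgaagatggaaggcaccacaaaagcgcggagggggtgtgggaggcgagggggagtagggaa

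Annexins and S100 proteins, which bind calcium and membranes, were higher in 9 of 15 tested and lower in 0 (3 and 0 of 15 without GFP-low replicate 1, 2 and 0 of 15 without GFP-low replicate 2, 11 and 1 of 16 without whole mesenchyme, and 1 and 0 of 15 against the wider set). Beside Anxa3, Anxa1 (0.46, adjusted p = 0.0032) and S100a6 (0.47, adjusted p = 0.00197) differed by small amounts. Anxa1 was not called without GFP-low replicate 1 (0.43, adjusted p = 0.16), nor was S100a6 without replicate 1 (0.44, adjusted p = 0.338) or 2 (0.49, adjusted p = 0.115). In the list of retinoid and prostaglandin genes 5 of 18 were higher and 5 lower (4 and 3 of 17 without GFP-low replicate 1, 3 and 1 of 18 without GFP-low replicate 2, 5 and 9 of 18 without whole mesenchyme, and 2 and 1 of 20 against the wider set). Pla1a, a phospholipase of phosphatidylserine, stood at 35.9, 48.0 and 29.9 CPM in members and 7.36, 13.0 and 7.83 CPM in comparison cells (log2 difference 1.93 ± 0.13 (SE), adjusted p = 1.98e-07), and Ptgs1, the constitutive cyclooxygenase, at 41.0, 115 and 154 against 25.4, 55.3 and 61.7 CPM (log2 difference 1.18 ± 0.09 (SE), adjusted p = 4.97e-07). Aldh1a1, which makes retinoic acid, was lower, at -1.04 (adjusted p = 3.5e-06). Only Pla1a was free of overlap among these 3.

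Adipocyte lineage genes gave 3 higher and 5 lower of 16 (1 and 3 of 16 without GFP-low replicate 1, 0 and 2 of 14 without GFP-low replicate 2, 5 and 4 of 15 without whole mesenchyme, and 1 and 2 of 16 against the wider set). Zfp423, a factor of adipocyte commitment, was higher by 0.54 (adjusted p = 0.0178) and not called without GFP-low replicate 1 (0.65, adjusted p = 0.197) or replicate 2 (0.44, adjusted p = 0.48). Hedgehog response genes gave 2 higher, Hhip and Cdon, and 3 lower of 12 (0 and 0 of 12 without GFP-low replicate 1, 1 and 0 of 12 without GFP-low replicate 2, 2 and 3 of 12 without whole mesenchyme, and 0 and 0 of 12 against the wider set). The Hedgehog-binding inhibitor Hhip was higher by 0.59 (adjusted p = 0.00214; 0.45 and adjusted p = 0.107 without GFP-low replicate 1), while the receptor Ptch1 (-0.38, adjusted p = 0.00699) and the coreceptor Boc (-0.46, adjusted p = 0.00454) were lower. Neither of these passed without GFP-low replicate 1 (Ptch1 -0.46, adjusted p = 0.0916; Boc -0.32, adjusted p = 0.503) or replicate 2 (Ptch1 -0.37, adjusted p = 0.336; Boc -0.56, adjusted p = 0.0936). Of 9 Notch genes 3 were higher and 1 lower (2 and 0 of 9 without GFP-low replicate 1, 0 and 0 of 9 without GFP-low replicate 2, 4 and 1 of 9 without whole mesenchyme, and 0 and 0 of 9 against the wider set). The receptor Notch2 was higher by 0.54 (adjusted p = 0.00141), and not called without GFP-low replicate 1 (0.48, adjusted p = 0.139) or replicate 2 (0.45, adjusted p = 0.281).

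Interferon-stimulated genes were lower in 12 of 22 tested and higher in 0, with a median of -0.36 (0 and 6 of 21 without GFP-low replicate 1, 0 and 1 of 22 without GFP-low replicate 2, 1 and 12 of 22 without whole mesenchyme, and 0 and 2 of 22 against the wider set). Rsad2, which encodes viperin, stood at 7.69, 5.75 and 12.8 CPM in members and 14, 28.2 and 43.5 CPM in comparison cells (log2 difference -1.92 ± 0.17 (SE), adjusted p = 2.05e-06). Isg15, a ubiquitin-like protein, was lower, at -0.67 (adjusted p = 0.000284). Isg15 was not called without GFP-low replicate 2 (-0.49, adjusted p = 0.113). Genes of the response to tissue dissociation were lower in 5 of 22 and higher in 0, and 0 were called without either GFP-low replicate (0 and 0 of 22 without GFP-low replicate 1, 0 and 0 of 22 without GFP-low replicate 2, 1 and 9 of 22 without whole mesenchyme, and 0 and 0 of 22 against the wider set). Socs3 stood at 889, 700.4 and 828 against 1113, 1254 and 1297 CPM (log2 difference -0.62 ± 0.10 (SE), adjusted p = 0.000755), the heat shock genes Hspa1a and Dnajb1 differed by -0.49 (adjusted p = 0.00259) and -0.42 (adjusted p = 0.016). Without GFP-low replicate 1 the 3 values were -0.48, -0.51 and -0.29 (adjusted p = 0.134, 0.0551 and 0.558), and without replicate 2 -0.59, -0.37 and -0.33 (adjusted p = 0.0681, 0.258 and 0.446). Of 6 cell cycle genes tested 1 was lower, Hmgb2 (-0.57, adjusted p = 0.000849; -0.41 and adjusted p = 0.312 without GFP-low replicate 2), and 0 higher (0 and 1 of 5 without GFP-low replicate 1, 0 and 0 of 6 without GFP-low replicate 2, 1 and 1 of 10 without whole mesenchyme, and 0 and 0 of 8 against the wider set).

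Contractile genes were lower in 6 of 11 tested and higher in 0 (0 and 6 of 11 without GFP-low replicate 1, 0 and 5 of 11 without GFP-low replicate 2, 2 and 3 of 9 without whole mesenchyme, and 0 and 1 of 13 against the wider set). Acta2, smooth muscle actin, stood at 33.3, 5.46 and 4.06 CPM in members and 408, 6.84 and 6.85 CPM in comparison cells (log2 difference -2.11 ± 0.37 (SE), adjusted p = 0.00105), and Tagln, transgelin, at 23.1, 7.48 and 6.39 against 326, 7.72 and 8.39 CPM (log2 difference -1.64 ± 0.40 (SE), adjusted p = 0.0121). Without whole mesenchyme the differences were -0.52 (adjusted p = 0.207) and -0.21 (adjusted p = 0.619). With cells marked as other types left out of both sets they were -0.025 (adjusted p = 0.977) and 0.0065 (adjusted p = 0.995). Mylk, the kinase of myosin light chain, stood at 7.69, 7.19 and 7.84 against 98.3, 18.2 and 16.9 CPM (log2 difference -1.55 ± 0.24 (SE), adjusted p = 0.000407), and its difference was -1.12 (adjusted p = 0.000171) without those cells.

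**Figure D2:**
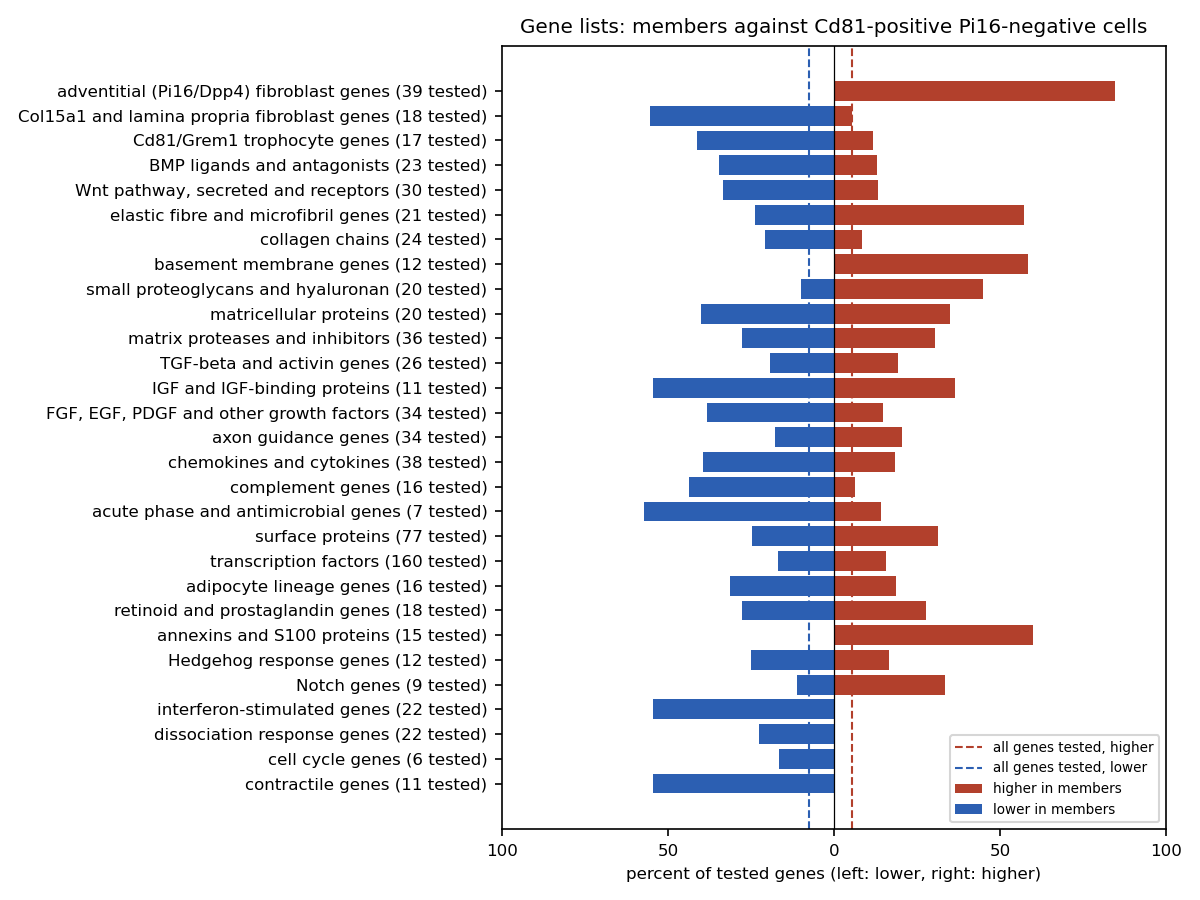
Share of the tested genes of each of 29 lists that were higher (red, to the right) or lower (blue, to the left) in members than in Cd81-positive Pi16-negative cells, in percent, with dashed lines at the shares over all 10863 genes tested, 5.48% and 7.55%. The adventitial list reaches 33 of 39 genes higher, while the interferon-stimulated list has 12 of 22 lower and 0 higher.

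Among genes outside the lists with at least 50 CPM and 1 direction in all 3 libraries, the largest rise was that of Npy1r, a receptor of neuropeptide Y, at 66.6, 133 and 225 CPM in members and 33.5, 15.3 and 35.8 CPM in comparison cells (log2 difference 2.68 ± 0.16 (SE), adjusted p = 8.54e-08). Basp1, a membrane protein of growing axons, stood at 76.9, 146 and 123 against 23.6, 33.0 and 25.2 CPM (log2 difference 2.17 ± 0.09 (SE), adjusted p = 2.42e-09). Cmah, the enzyme that makes N-glycolylneuraminic acid, stood at 120.5, 165 and 156 against 50.1, 37.7 and 50.7 CPM (log2 difference 1.80 ± 0.11 (SE), adjusted p = 8.23e-08). All 3 were free of overlap. The uncharacterised 1700019D03Rik (1.58), Tmem100, a membrane protein of vessels and sensory neurons (1.45), and Sntb1, a syntrophin (1.26), were separate as well, while Lrrn4cl (1.53) and Gm12840 (1.53) overlapped between libraries though higher in each. Their adjusted p ran from 2.28e-08 (Tmem100) to 1.57e-05 (Sntb1).

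The largest falls outside the lists, under the same limits, included genes of the fibroblasts and genes of plasma cells. Mamdc2, a secreted matrix protein, stood at 20.5, 12.9 and 8.42 CPM in members and 59.6, 83.2 and 59.0 CPM in comparison cells (log2 difference -2.64 ± 0.14 (SE), adjusted p = 2.28e-08). Piezo2, a mechanically gated channel, stood at 56.4, 11.8 and 12.2 against 101, 79.8 and 78.0 CPM (log2 difference -2.45 ± 0.19 (SE), adjusted p = 7.05e-07). Stc2, the secreted glycoprotein stanniocalcin 2, stood at 35.9, 71.3 and 118 against 235, 327 and 335 CPM (log2 difference -1.91 ± 0.14 (SE), adjusted p = 5.03e-07). Ppp1r14a, an inhibitor of myosin phosphatase (-1.86, adjusted p = 2.28e-08), Ifitm1, an interferon-induced membrane protein (-1.79, adjusted p = 4.05e-06), and Adm, the vasodilator adrenomedullin (-1.65, adjusted p = 9.03e-07), were lower too, and only Adm overlapped. The immunoglobulin genes Igkc and Igha stood at 17.9, 18.7 and 24.4 and 20.5, 16.4 and 14.5 CPM in members and at 40.9, 520.4 and 91.4 and 23.9, 156 and 51.6 CPM in comparison cells. The comparison cells of GFP-low replicate 1 stood far above the other libraries, and without that library the differences went from -3.45 to -1.81 and from -2.60 to -1.57 (adjusted p = 2.41e-15 and 2.98e-08). With members taken from 1 Pi16 UMI on, both turned direction, to 1.65 and 1.29, and neither passed (adjusted p = 0.13 and 0.0616), nor did they with DESeq2 (-2.58 and -1.82, adjusted p = 0.109 and 0.238). With a Pdgfra UMI asked of both sets, Igha stood at -0.62 (adjusted p = 0.0633). The summed B and plasma cell markers moved with them, at 15.9, 9.52 and 6.98 CPM in members and 17.8, 115 and 32.2 in comparison cells, and their part in these falls was not tested.

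One further gene is given because its values stood out when they were seen. Esm1, a proteoglycan usually known from endothelial tip cells, stood at 0, 32.5 and 37.7 CPM in members and 16.6, 1.44 and 0.721 CPM in comparison cells (log2 difference 3.89 ± 0.57 (SE), adjusted p = 0.000258). The 2 GFP-low libraries were high in members and low in comparison cells, while whole mesenchyme showed the reverse order, with 0 UMIs in 57 members.

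The second comparison set the same members against the Adamdec1-rich fibroblasts. The contrast was wider: of 11990 genes tested, 1431 were higher (11.9%) and 1601 lower (13.4%), 25.3% in all. Without GFP-low replicate 1 there were 1417 calls, without replicate 2 there were 1956, without whole mesenchyme 4017, and DESeq2 made 1992. Both comparisons use the same members, so their values are set side by side and no relation between them is drawn. Cells with Adamdec1 were chosen by that gene, and in whole mesenchyme the Adamdec1-rich cells also held telocyte markers at 1224 summed CPM, against 370.4 in members.

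Of the adventitial genes 35 of 39 were higher and 2 lower (Procr and Ly6h), with a median of 2.25. Dpp4 stood at 0.165, 0.766 and 0.583 CPM in Adamdec1-rich fibroblasts (log2 difference 6.17 ± 0.33 (SE), adjusted p = 4.78e-08), Efhd1 at 0.576, 0.109 and 0.700 CPM (log2 difference 6.79 ± 0.29 (SE), adjusted p = 1.74e-08) and Ackr2 at 0.165, 0.109 and 0.350 CPM (log2 difference 7.12 ± 0.34 (SE), adjusted p = 2.5e-08). The largest rises with at least 50 CPM were Efhd1, Cmah (6.01), 1700019D03Rik (5.6), Npy1r (5.58) and Sema3d, a class 3 semaphorin, at 83.3, 57.7 and 107 CPM in members and 1.19, 1.31 and 3.61 CPM (log2 difference 5.39 ± 0.22 (SE), adjusted p = 1.4e-08). Osr2 was higher by 5.58 and Col8a1 by 4.47 (adjusted p = 3.16e-08 and 2.04e-08). No member value of these genes overlapped with the Adamdec1-rich fibroblasts.

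The largest falls were to near absence. Wnt4, a Wnt ligand, stood at 2.60, 1.20 and 1.20 CPM in members and 184, 184 and 241 CPM in Adamdec1-rich fibroblasts (log2 difference -7.34 ± 0.23 (SE), adjusted p = 7.17e-09). The ErbB ligand Nrg1 had 1, 0 and 0 UMIs in members, against 4345, 374 and 244 UMIs (179, 40.9 and 28.5 CPM) in the other set. In whole mesenchyme the other set held 68.7 times the member level, with an exact 95% counting interval of 12.3 to 2713. In the GFP-low replicates it was at least 45.6-fold and 31.7-fold higher, set against a floor of 3 UMIs per library. The members held 1, 0 and 1 UMIs of Tbx2, a T-box factor, against 62.5, 56.1 and 47.5 CPM in the other set. Syt13 and Adgrl3 each had 1, 2 and 0 UMIs in members, against 116, 84.5 and 62.0 and 84.8, 50.8 and 72.1 CPM. Saa3 was lower, at -6.91, Igfbp3 at -6.75, Pappa at -5.28 and Edil3 at -5.06 (adjusted p = 7.17e-09, 4.74e-08, 1.29e-08 and 3.02e-08). Lamina propria genes were lower in 15 of 20 and higher in 1, Penk. Contractile genes were lower in 13 of 13, and smooth muscle and pericyte markers summed to 776, 379 and 351 and 125, 153 and 91.3 CPM in the Adamdec1-rich cells. In the fit without cells marked as other types, 8 of 9 contractile genes tested were lower and 0 higher, and the median difference of the list went from -3.54 to -1.61.

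The differences of some genes had opposite signs in the 2 comparisons. Gdf6 (-1.27 and 3.20), Piezo2 (-2.45 and 1.63), Aoc3 (-1.86 and 1.78) and Rsad2 (-1.92 and 1.47) were lower in the first and higher in the second, all past the threshold in both. Penk and Rspo3, whose calls in the first comparison were lost without a GFP-low replicate as given above, were higher than in Adamdec1-rich fibroblasts by 3.83 and 1.21 (adjusted p = 2.37e-08 and 0.000179). Igfbp5 was the reverse: members held more than Cd81-positive Pi16-negative cells (2.50) and less than Adamdec1-rich fibroblasts, at 891, 1650 and 1437 CPM (log2 difference -1.63 ± 0.19 (SE), adjusted p = 3.75e-05). Grem1 did not pass in the second comparison (log2 difference 0.79 ± 0.38 (SE), adjusted p = 0.167): it was higher in members of whole mesenchyme and GFP-low replicate 2 and lower in GFP-low replicate 1, where the other set stood at 906 CPM. Has2 (0.066, adjusted p = 0.795), Timp3 (0.041, adjusted p = 0.916) and Vcan (-0.18, adjusted p = 0.397) did not pass either.

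**Figure D3:**
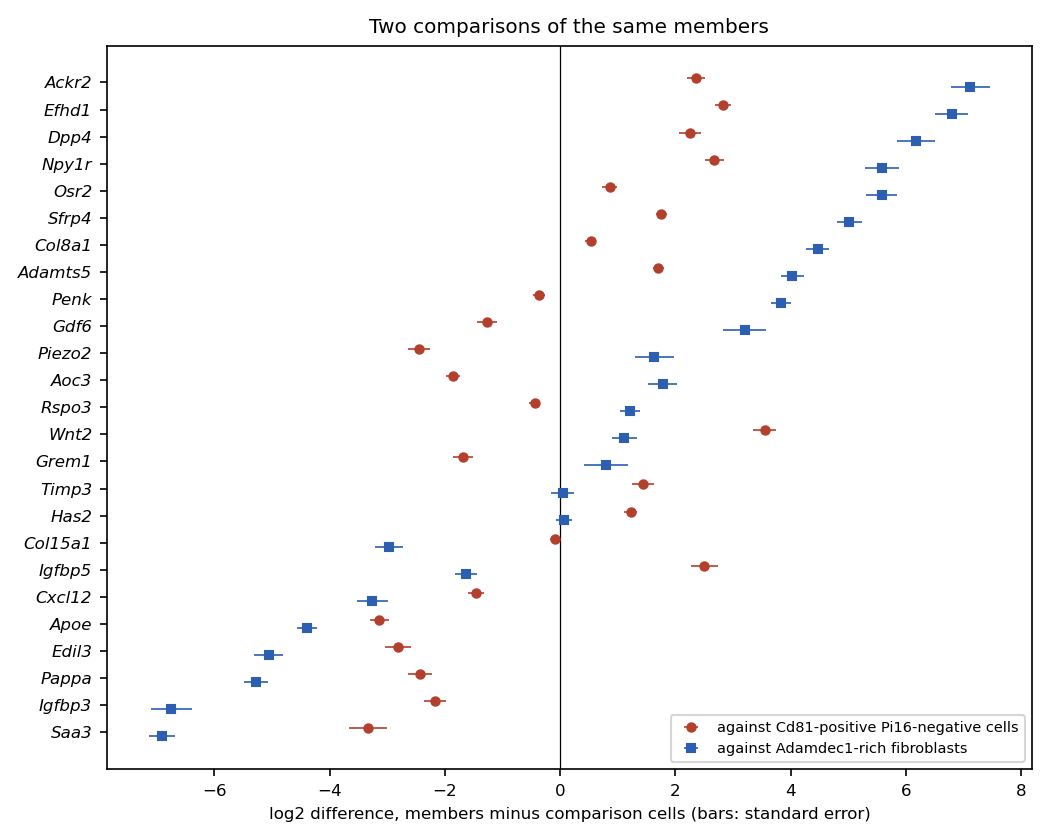
Log2 difference of 25 named genes between the members and Cd81-positive Pi16-negative cells (red circles) and between the same members and Adamdec1-rich fibroblasts (blue squares), with bars of the standard error. Efhd1 lies at 2.82 and 6.79, and Igfbp5 at 2.50 and -1.63, on opposite sides of 0.

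Members differed among themselves by Pi16 level. They were divided into 20, 117 and 156 cells with 2 Pi16 UMIs, 19, 140 and 137 with 3 to 4, and 18, 213 and 145 with 5 or more, whose median depths were 6112.5, 6594 and 8005, then 7423, 6595.5 and 8730, then 7619, 7684 and 9186 UMIs. Depth rose with the Pi16 count, Pi16 made the division, and the levels below (CPM of each set's own sum) are a description with no test. Dpp4 stood at 35.7, 29.4 and 16.8 with 2 Pi16 UMIs, 23.4, 18.8 and 13.0 with 3 to 4 and 36.3, 69.7 and 38.7 with 5 or more. Igfbp5 stood at 89.3, 315 and 127, then 70.2, 196 and 167, then 921, 1094 and 472, and Wnt2 at 8.93, 5.6 and 6.40, then 0, 21.0 and 12.1, then 36.3, 50.7 and 44.0. For these 3 genes the GFP-low libraries stepped up mainly at 5 or more UMIs. Stmn4 (0, 14 and 5.6 with 2 and 79.8, 40.4 and 33.3 with 5 or more) and Mfap5 (697, 1038 and 812 and 1407, 1866 and 1608) were higher at 5 or more in all 3 libraries, and Efhd1 (53.6, 26.6 and 20.8 and 50.8, 83.1 and 79.6) in the GFP-low libraries.

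Cells with 1 Pi16 UMI, outside the rule, lay between the comparison cells and the members for several genes. Grem1 stood at 2438, 2790.2 and 3216 in comparison cells, 2745, 1508 and 1515 with 1 Pi16 UMI, 1367, 904 and 1291 with 2 and 1284, 409.6 and 485 with 5 or more. In the GFP-low libraries it was lower at each step, and in whole mesenchyme the cells with 1 UMI were the highest. Apoe had dropped already in cells with 1 Pi16 UMI, at 76.9, 56.6 and 31.7 against 576, 180.1 and 132 in cells without. Stc2 stood at 247, 342 and 298 without Pi16, 218, 196 and 176 with 1 UMI and 36.3, 58.1 and 84.9 with 5 or more. Penk showed no steady order, at 173, 576 and 329 without Pi16 and 102, 535 and 226 with 5 or more.

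**Figure D4:**
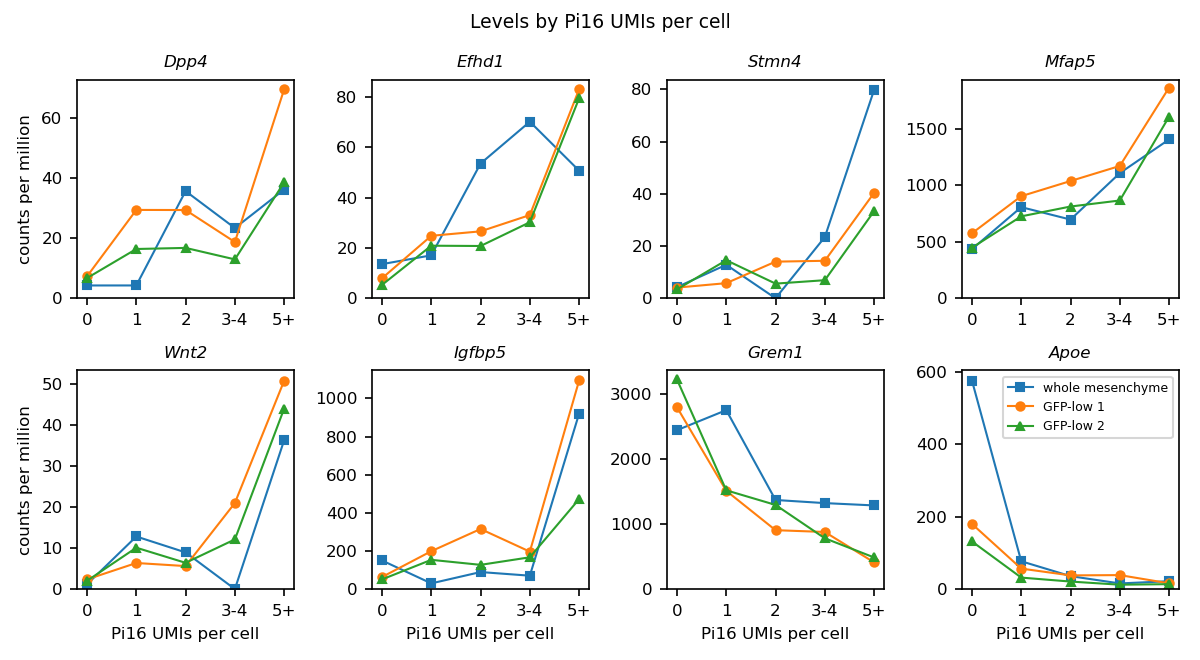
Level of 8 genes, in CPM, in cells grouped by their number of Pi16 UMIs (0 and 1 with a Cd81 UMI, not members; 2, 3 to 4 and 5 or more, members), 1 line per library. Wnt2 reaches 36.3, 50.7 and 44.0 in members with 5 or more Pi16 UMIs, and Apoe is highest in cells without Pi16.

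Members also divided by Grem1, the antagonist gene whose level set the trophocytes apart. No Grem1 UMI was found in 15, 264 and 189 members, 1 in 5, 69 and 62, and 2 or more in 37, 137 and 187, with median depths of 5611, 6645 and 8527 UMIs in the first group and 7250, 8039 and 8730 in the last. This division was chosen after the values were seen and is given with no test. Dpp4 stood at 134, 70.3 and 41.4 CPM in members without Grem1 and 3.82, 12.9 and 6.61 in those with 2 or more. Efhd1 stood at 134, 86.6 and 75.9 and 26.7, 9.18 and 16.2, and Nov at 72.9, 81.9 and 97.5 and 30.6, 9.18 and 13.8. Each was higher without Grem1 in all 3 libraries. The Wnt antagonist Sfrp4 (328, 238 and 211 and 61.1, 42.2 and 49.9), Igfbp5 (1398, 922 and 424 and 34.4, 152 and 111) and Basp1 (219, 235 and 169 and 45.8, 51.4 and 55.3) had the same order. Cd55 differed less, at 1544, 1556 and 1396 and 1528, 1228 and 981, while Mfap5 differed mainly in the GFP-low libraries, at 1130.4, 1794 and 1444 and 1001, 983 and 753. The opposite order was seen for Cxcl12 (292, 148 and 96.9 and 516, 389 and 234), Stc2 (12.2, 44.7 and 52.9 and 49.7, 145 and 174) and Rspo3 (48.6, 84.8 and 148 and 84.0, 176 and 234). Barcodes with under 100 UMIs held 339, 1127 and 1494.5 CPM of Grem1.

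**Figure D5:**
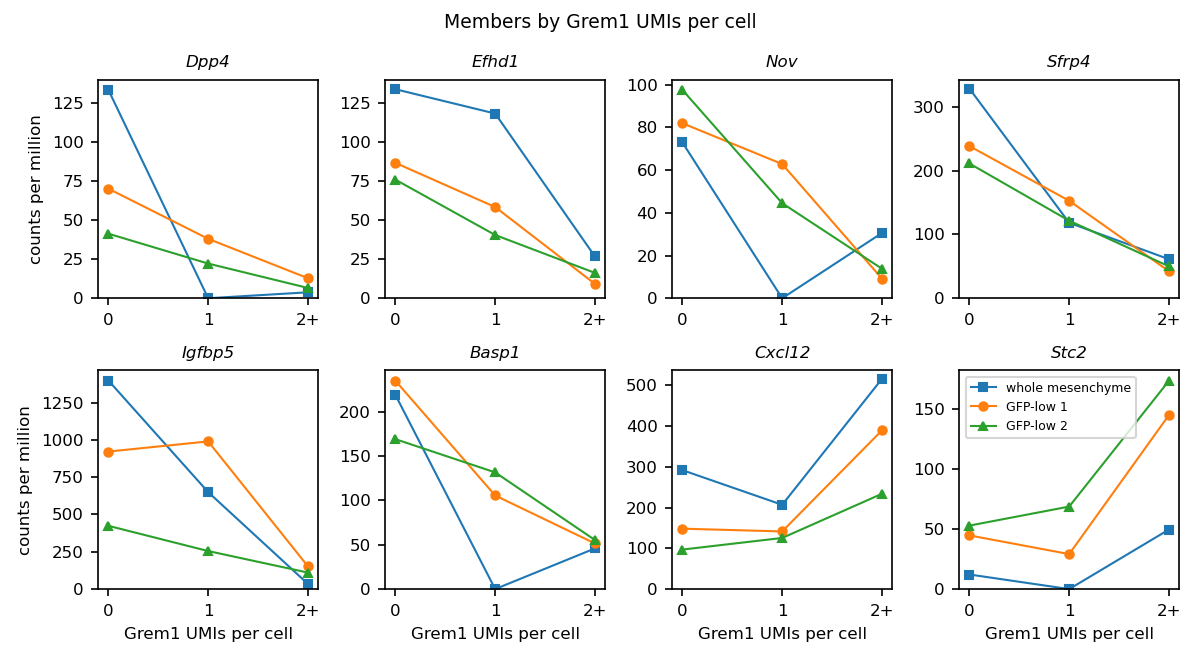
Level of 8 genes, in CPM, in members with 0, 1 and 2 or more Grem1 UMIs, 1 line per library. Dpp4, Efhd1, Nov, Sfrp4, Igfbp5 and Basp1 are higher without Grem1 than with 2 or more UMIs in every library, and Cxcl12 and Stc2 lower; the whole mesenchyme group with 1 UMI holds 5 cells.

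The 6, 92 and 56 members with a Dpp4 UMI had median depths of 7451, 7463.5 and 9614.5 UMIs, against 7124, 7037 and 8405 in the other 51, 378 and 382. Efhd1 stood at 135, 119 and 99.4 CPM in members with Dpp4 and 48.0, 40.7 and 35.4 in those without. Mfap5 stood at 1416, 2022 and 1648 and 1053, 1352 and 1021, and Cd248 at 539, 1002 and 634 and 501, 688 and 466. Cd34 was nearly level between them in GFP-low replicate 1, at 809, 910.1 and 853 and 891, 902 and 747. The order was the same in all 3 libraries for the first 3 genes, with no test made.

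The third comparison asked whether members without a Cd81 UMI differ from those with one. Only 8 whole mesenchyme members lacked Cd81, under the 20 cells set for a sum, so the fit used the GFP-low libraries, with 436 and 416 members with Cd81 and 34 and 22 without. The members without Cd81 were shallower, with medians of 2556.5 and 6235.5 UMIs against 7307.5 and 8774.5. Mitochondrial genes took a median of 4.86% and 1.69% of their UMIs, against 2.61% and 1.45% with Cd81. Of 9465 genes tested 4 were higher with Cd81 (0.0423%) and 1 lower (0.0106%), 0.0528% in all, 665 had an unadjusted p under 0.05, and DESeq2 called 0. Cxcl2, a neutrophil chemokine, stood at 63.0 and 217 CPM with Cd81 and had 0 UMIs in both sums without it, at least 2.59-fold and 8.78-fold higher against a floor of 3 UMIs per library (adjusted p = 7.83e-07). Klf6, an early response factor, stood at 516 and 597 CPM against 292 and 280.1 (log2 difference 0.96 ± 0.21 (SE), adjusted p = 0.0428). The cell cycle inhibitor gene Cdkn1a (1.10) and the dynein light chain gene Dynll1 (1.02) were higher and the heat shock gene Hspa1b lower (-0.92), with adjusted p of 0.0428, 0.0428 and 0.036. Dpp4 (-0.034 ± 0.54 (SE), adjusted p = 0.997) and Pdgfra (-0.47 ± 0.26 (SE), adjusted p = 0.743) did not pass, which does not show that the sets are alike.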

How the data were processed

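Droplet single-cell RNA sequencing of 3 colon libraries was used; the other samples of the series were not used here. Per the submitters' processing notes, the tools and builds named are Cell Ranger 3.0.2 and mm10. The deposited matrices hold raw UMI counts per gene and barcode, with 6794880 barcodes and 31053 genes per library per the file headers, so empty droplets are included and cells were filtered here. Cells had at least 1000 UMIs, 500 genes and at most 20% mitochondrial UMIs. Scrublet (scanpy 1.11.5, expected rate 6%) marked 2, 3 and 3 cells, which is too few to have worked, so no doublets were removed.

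UMIs were summed per library and cell set, sums of under 20 cells were left out, and genes used to choose cells were removed. Sums were tested with edgeR 4.0.16 (R 4.3.3; filterByExpr, TMM, quasi-likelihood, library as a block, since both sets of a pair come from 1 library), with Benjamini-Hochberg adjustment over all genes tested and a threshold of 0.05. DESeq2 1.42.0, other cell limits, thinning, depth matching and leaving out each library were the alternatives. Cells were selected and summed in Python 3.11.15 (pandas 2.3.3, numpy 2.4.6), intervals came from scipy 1.17.1 and figures from matplotlib 3.10.9. CPM of the comparisons are scaled by TMM; levels of markers and of subsets are CPM of the set's own total, without that scaling. Intervals are exact (Clopper-Pearson, 95%) and cover counting error only. Between the GFP-low replicates, the summed members gave a chi-square of 30.6 for each degree of freedom (11315 genes), more than counting error gives, and both were kept as samples.

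The members, lists and tests were chosen with earlier results of these data known. Named genes were a fixed set of markers, up to 3 genes per list (5 surface proteins, 6 transcription factors) with the largest difference among those past the threshold, of 1 direction in all 3 libraries and with at least 20 CPM, and the 8 largest rises and falls outside the lists with at least 50 CPM. Genes named beside short counts, Ebf1, Ebf2, Ebf3, Esm1 and Cadm3 fall outside this rule and were chosen after their values were seen. Some genes the rule names are not reported here. Of 1009 list symbols 3 were not found in the files. Promoter sequences are from RefSeq (GRCm38.p6).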

Additional observations from a re-analysis of the deposited data

Results flagged for a closer look

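In the first comparison, 8 genes of which the text or a list gives values had one sign in whole mesenchyme and the other in both GFP-low libraries. They were picked by sign alone, and the whole mesenchyme differences of Bmp6, Podn, Lum, Klf6 and Col15a1 were small. The share of all tested genes with such signs was not counted. Differences are log2 of scaled CPM plus 1, members minus Cd81-positive Pi16-negative cells, and the difference between the sorts was not tested, since there is 1 whole mesenchyme library with 57 members. Esm1, an endothelial tip cell proteoglycan, was at -4.135 in whole mesenchyme against 3.781 and 4.493. Ebf3 was at -0.6047 against 0.9185 and 1.275. Cxcl2, a neutrophil chemokine, was at -1.262 against 1.838 and 1.024, and Klf6, an early response factor, at -0.1087 against 0.3912 and 0.4703. Bmp6, a BMP ligand, was at -0.02784 against 0.77 and 1.095. The matrix proteoglycans Lum (0.07894 against -0.6361 and -0.6994) and Podn (0.03577 against -0.4044 and -0.446) had the opposite order, as had Col15a1 (0.1065 against -0.05941 and -0.1926). Cxcl2, Klf6 and Col15a1 did not pass the test of the first comparison.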

How the results depend on the processing

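Some settings moved the first comparison (595 higher and 820 lower) by over 1.5 times. It gave 100 and 165 calls with comparison cells free of the endothelial and Ptprc limits, 230 and 348 with cells thinned to 3000 UMIs, 238 and 271 with DESeq2, and 135 to 889 higher and 203 to 1108 lower with each library left out. Without the library as a replicate block, 15 genes were higher and 12 lower; the block pairs the sets because both come from 1 library. The second comparison (3032 calls) gave 1992 with DESeq2, 1438 with no replicate block and 1417 to 4017 with a library left out. The third (5 calls) gave 0 with DESeq2, 0 with no replicate block (291 genes at an unadjusted p under 0.05) and 13 without the filter on low counts; matching depth or leaving out a library left 1 library, so neither was fitted. Member shares were 1.49%, 16.1% and 13.7% with 1 Pi16 UMI, 0.545%, 7.30% and 4.68% with 3, and 0.576%, 7.05% and 3.21% after thinning. Signs turned for Col15a1 with Adamdec1 under 0.1% (0.041), Acta2 with Pdgfra in both sets (0.012), Tagln without other cell types (0.0065), and Igkc (1.65) and Igha (1.29) with 1 Pi16 UMI; the cause was not tested. A stricter Adamdec1 limit (1%) and the removal of other cell types in the second comparison were chosen after seeing the data and gave 2947 and 2950 calls.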
